A study of Mus musculus with 6 samples.

Results

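The nuclear-encoded genes of the mitochondrial respiratory chain were followed in cortex RNA of mice after stroke. They were taken by symbol from the deposited count table. Nduf genes with a, b, c, s or v and a number were taken, which leaves out the subunit gene Ndufab1. Also taken were Sdha to Sdhd, all Uqcr genes, Cyc1, Cycs, Cox4 to Cox8 and all Atp5 genes. This gave 86 of the table's 24421 rows, of which 82 had enough counts to be tested. By name, 37 belong to complex I, 4 to complex II, 9 to complex III, 18 to complex IV and 17 to complex V, and Cycs encodes the carrier cytochrome c. Both groups were C57BL/6 mice that had undergone MCAO, occlusion of the middle cerebral artery, which causes an ischaemic stroke. The controls were given green fluorescent protein (GFP, 3 libraries) and the others NeuroD1 (3 libraries), a basic helix-loop-helix factor of neuronal differentiation. The series title describes intravenous gene therapy. Vector, promoter, time after stroke, age and sex are not given in the labels. Nothing says that each library comes from its own animal, and p-values then measure only how these samples vary, which may be technical.

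The respiratory chain sits in the inner mitochondrial membrane. Complexes I and II pass electrons from NADH and succinate to ubiquinone, complex III passes them to cytochrome c, and complex IV passes them to oxygen. Complexes I, III and IV pump protons, and complex V, the ATP synthase, uses the proton gradient to make ATP. Some subunits are encoded by mitochondrial DNA, whose transcripts are not analysed here, and all other subunits come from the nucleus. Many nuclear subunits are small accessory proteins with short mRNAs. Neurons depend heavily on this pathway for firing and synaptic transmission, and it is starved of oxygen in ischaemia.

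The promoters of these genes are known for sites of nuclear respiratory factor 1 (NRF1) and of the ETS-family factor GABP. The stretches below show these motifs in 2 members whose NeuroD1 libraries all lay below the GFP libraries (Cox8a and Ndufa5) and in 2 whose groups overlapped (Sdha and Uqcrc1). Each runs from 250 bases before to 30 bases after a RefSeq start (GRCm38.p6), 5′ to 3′ on the gene's strand, with matches to the NRF1 motif (GCGCA, any base, GCGC) or the GABP motif (CCGGAAG), searched on either strand, in capitals. Each motif was searched separately, so matches may overlap.
Cox8a (chr19:7217587-7217866, minus strand): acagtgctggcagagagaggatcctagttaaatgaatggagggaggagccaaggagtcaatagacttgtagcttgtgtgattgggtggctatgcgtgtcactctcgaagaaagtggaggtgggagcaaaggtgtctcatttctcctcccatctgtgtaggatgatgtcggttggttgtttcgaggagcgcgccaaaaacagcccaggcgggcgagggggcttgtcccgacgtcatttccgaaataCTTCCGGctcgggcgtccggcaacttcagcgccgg
Ndufa5 (chr6:24527661-24527940, minus strand): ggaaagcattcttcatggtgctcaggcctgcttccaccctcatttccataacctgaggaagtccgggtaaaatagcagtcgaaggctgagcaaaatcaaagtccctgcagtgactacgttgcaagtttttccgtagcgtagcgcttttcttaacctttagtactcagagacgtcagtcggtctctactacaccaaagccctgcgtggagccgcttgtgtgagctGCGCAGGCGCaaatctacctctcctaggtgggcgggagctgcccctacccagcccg
Sdha (chr13:74350211-74350490, minus strand): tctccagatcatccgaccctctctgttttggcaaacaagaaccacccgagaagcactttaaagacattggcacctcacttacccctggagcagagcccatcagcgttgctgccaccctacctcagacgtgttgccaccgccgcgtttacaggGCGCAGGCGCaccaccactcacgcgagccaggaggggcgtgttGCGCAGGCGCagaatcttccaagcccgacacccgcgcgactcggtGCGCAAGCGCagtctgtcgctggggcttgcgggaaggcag
Uqcrc1 (chr9:108936398-108936677, plus strand): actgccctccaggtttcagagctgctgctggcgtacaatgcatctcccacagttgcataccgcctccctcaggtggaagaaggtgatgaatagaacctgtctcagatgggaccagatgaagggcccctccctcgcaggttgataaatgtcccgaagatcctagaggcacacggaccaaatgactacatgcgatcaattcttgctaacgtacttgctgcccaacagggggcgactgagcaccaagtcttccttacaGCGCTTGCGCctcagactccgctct
Cox8a shows a GABP match near its start, Ndufa5 and Uqcrc1 each show an NRF1 match, and Sdha shows 3 NRF1 matches. The windows counted below run further, to 50 bases after the start. There Cox8a has 2 GABP matches and Uqcrc1 has 2 NRF1 matches. RefSeq promoters, each running from 250 bases before to 50 after a start, matched 67 of the 86 members by symbol and gave 72 promoters. NRF1's motif was in 18 (25%) of these 72, against 4.60% of all 32851 promoters in the table. The GABP motif was in 22.2% against 8.86%. AAGGTCA, the core bound by oestrogen-related receptors, was in 11.1% against 4.72%, and AAGATGGC, the core of the YY1 motif, in 12.5% against 2.75%. Promoters of the members with an unadjusted p under 0.05 held the NRF1 motif in 6 of 21 cases, and promoters of the other tested members in 11 of 48. For GABP these counts were 6 of 21 and 10 of 48. Some genes have more than 1 promoter, and these can overlap. Counted by gene, the NRF1 motif was in 5 of 18 and 11 of 46. The GABP motif was in 6 of 18 and 10 of 46 genes. A match describes letters only, and neither motif count was tested between these subsets.

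Total counts were 7753101 to 9698795 in the GFP libraries and 10843273 to 13440244 in the NeuroD1 libraries, so every NeuroD1 library was the deeper. Neurod1, the delivered gene, stood at 6.48, 3.87 and 5.43 CPM (reads of a gene relative to its library's TMM-adjusted total) in GFP replicates 1, 2 and 3 and at 48.5, 14.6 and 38.4 in the NeuroD1 replicates. The 15 neuron markers were all detected, with summed levels of 5810 to 10810 CPM with GFP and 4048 to 10740 with NeuroD1. The 86 members took 0.934%, 0.969% and 1.02% of all counts in the GFP libraries and 0.763%, 0.694% and 0.934% in the NeuroD1 libraries. Replicate 3 of NeuroD1 therefore lay at the level of GFP replicate 1, and the other 2 NeuroD1 libraries lay below every GFP library.

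Most members of complexes I, III, IV and V had lower fitted levels with NeuroD1, but none passed after adjustment with edgeR. The median of complex II lay near 0. Ndufs1, Sdha, Uqcrc2, Atp5a1 and Atp5b, large subunits with mRNAs long for the family, had values above 0. Of the 9 members with transcripts over 2000 bases, 5 were above 0, while Ndufb2, Sdhc, Cycs and Atp5sl were below. Some short ones, such as Cox5a (645 bases) and Atp5g3 (723 bases), were above 0 as well. Of the 82 tested members, 64 had a log2 fold change below 0, against 48.3% of all 14852 tested genes, and the median was -0.36, against 0.02 for all genes. After Benjamini-Hochberg adjustment over all genes, edgeR's quasi-likelihood test called 0 members (0% of all genes), and the smallest adjusted p among them was 0.14. At an unadjusted edgeR p under 0.05, 23 members were lower (11.5% of all genes) and 0 were higher (12.5% of all genes). In 30 members every NeuroD1 library lay below every GFP library (15.3% of all genes), and in 1, Atp5g3, every one lay above (14.2% of all genes, and 29.6% in either direction). DESeq2 called 3 of 82 members lower after adjustment, Cox8a, Cox6c and Ndufa5 (3.87% of all genes it tested), and 0 higher (5.04% of all genes, and 8.91% in either direction), while limma-voom called 0 members (0% of all genes) and had 24 lower at an unadjusted p under 0.05 (12.1% of all genes). The count of 23 moved with the libraries used, and so did the share over all genes. It was 5 without GFP replicate 2 (5.4% of all genes), 7 without GFP replicate 3 (6.4%), 6 without NeuroD1 replicate 1 (5.56%), and 12 without NeuroD1 replicate 2 (11.9%). It was 30 when GFP replicate 1 was left out (13.7%) and 32 when NeuroD1 replicate 3 was (13.6%). The members' median ran from -0.46 to -0.28 over these 6 fits. In bulk RNA, fewer cells of a type and less RNA per cell cannot be told apart.

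**Figure D1:**
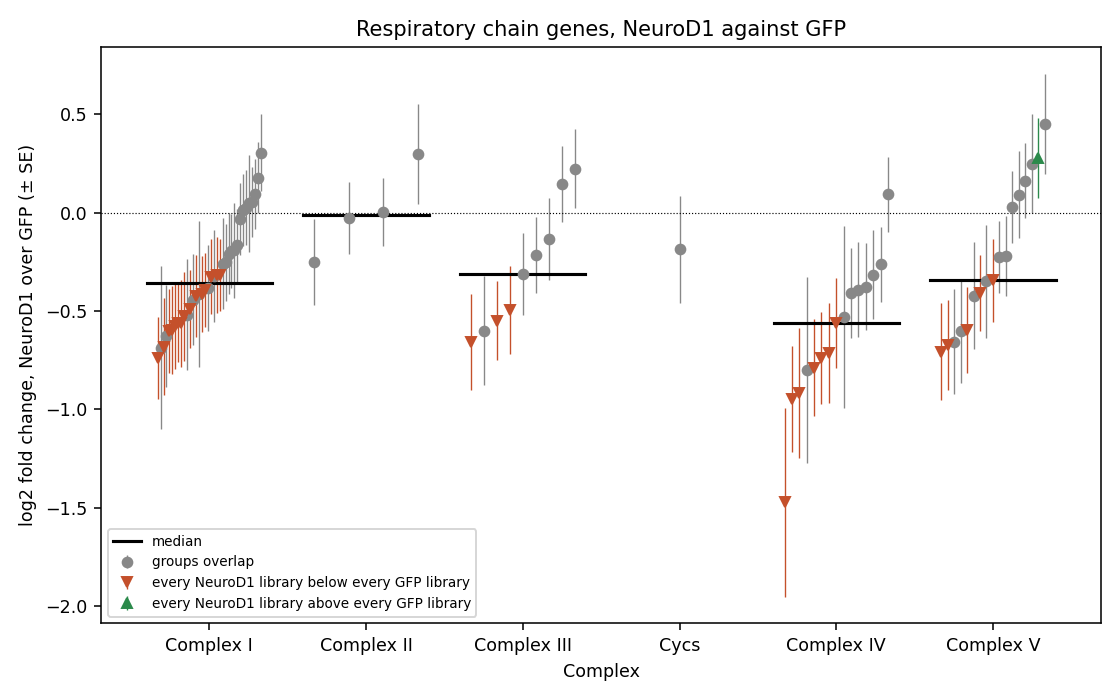
Log2 fold change (NeuroD1 over GFP, y axis) with its standard error for each of the 82 tested members, grouped by complex (x axis). Markers show whether the 3 NeuroD1 libraries all lay below or above the 3 GFP libraries, and black lines are medians, which lie near -0.36 for complex I, -0.01 for complex II, -0.31 for complex III, -0.56 for complex IV and -0.34 for complex V.

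The members differed in length, and fold change went with length in the whole transcriptome. Annotated transcripts of the members had a median length of 870 bases, against 3052.5 over all tested genes. Among all 754 tested genes with transcripts over 500 and up to 1000 bases the median log2 fold change was -0.40, and among the 41 members in that class it was -0.43. In that class 26.1% of all genes were lower at an unadjusted p under 0.05, and 16 of the 41 members were. Every NeuroD1 library lay below every GFP library in 30.9% of all genes of the class and in 20 of the 41 members. In both counts the members' share was the higher, which was not tested. In the class up to 500 bases the 6 members had a median of -0.66 and all 92 genes -0.75. Over 1000 and up to 1500 bases these medians were -0.24 for 14 members and -0.21 for 1323 genes, and over 1500 and up to 2000 bases -0.082 for 12 members and -0.11 for 1654 genes. Up to 2000 bases, members and all genes of a class thus had medians within 0.1 of each other. The 5 members over 2000 and up to 3000 bases had a median of 0.30, against -0.031 for all 3390 genes. The 4 members over 3000 and up to 5000 bases had a median of -0.22, against 0.11 for all 4636 genes. Genes longer than that had a median of 0.29 and held 0 members. Across the 82 members, Pearson's r of log2 fold change with log2 length was 0.49 and Spearman's rho 0.51, as a description, since the members share the same 6 libraries. Of the 23 members at an unadjusted p under 0.05, 19 had transcripts of at most 1000 bases.

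When each library was given offsets for transcript length and GC content before the test, the median of the members was -0.013, with 42 of 82 below 0 (48.6% of all genes). At an unadjusted p under 0.05, 4 members were lower (11.4% of all genes) and 2 higher (10.8% of all genes). The 4 were Ndufa5 (-0.46), Cox6c (-0.52), Ndufb2 (-0.95) and Atp5sl (-0.54), and the 2 were Ndufb8 (0.50) and Atp5g3 (0.61). Ndufb2 and Ndufb8 are named after their values were seen. The annotated principal transcripts of Ndufb2 (4371 bases) and Atp5g1 (4715 bases) are unusually long for this family. With offsets for length alone the median was -0.018, and with offsets for GC alone it was -0.34. The offsets were fitted to each library without regard to its group. They therefore also take out any group difference that follows length or GC, and cannot tell it from a technical trend. What gives the length trend was not tested.

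**Figure D2:**
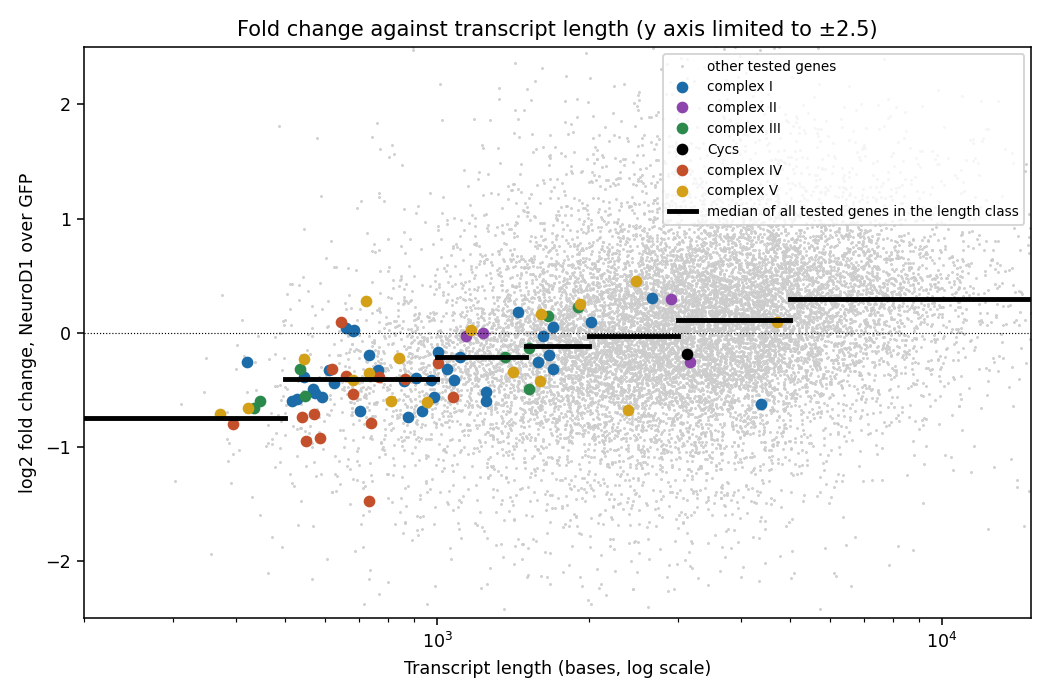
Log2 fold change (NeuroD1 over GFP, y axis) against transcript length in bases (log x axis) for members, coloured by complex, and all other tested genes (grey). Black bars are the medians of all tested genes in each length class, from -0.75 in the class up to 500 bases to 0.29 above 5000 bases, and most members lie around them.

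The same order of libraries was seen in short genes outside the family. With each gene set against its own mean over the GFP libraries, the 713 other genes over 500 and up to 1000 bases long had medians of -0.26, 0.21 and 0.05 on the log2 scale in GFP replicates 1, 2 and 3 and of -0.58, -0.31 and -0.27 in the NeuroD1 replicates. The 41 members of that length had medians of -0.17, 0.15 and 0.05 with GFP and -0.67, -0.49 and -0.27 with NeuroD1. In both sets GFP replicate 2 was highest and NeuroD1 replicate 1 lowest. GFP replicate 2 also had 7.25% of its counts on the ribosomal RNA precursor Rn45s, against 0.22% to 1.22% in the other 5 libraries, and without Rn45s in the table the members' median was -0.39. Among the 82 members, the highest level was in GFP replicate 2 for 48, and the lowest was in NeuroD1 replicate 1 for 36 and in NeuroD1 replicate 2 for 28.

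**Figure D3:**
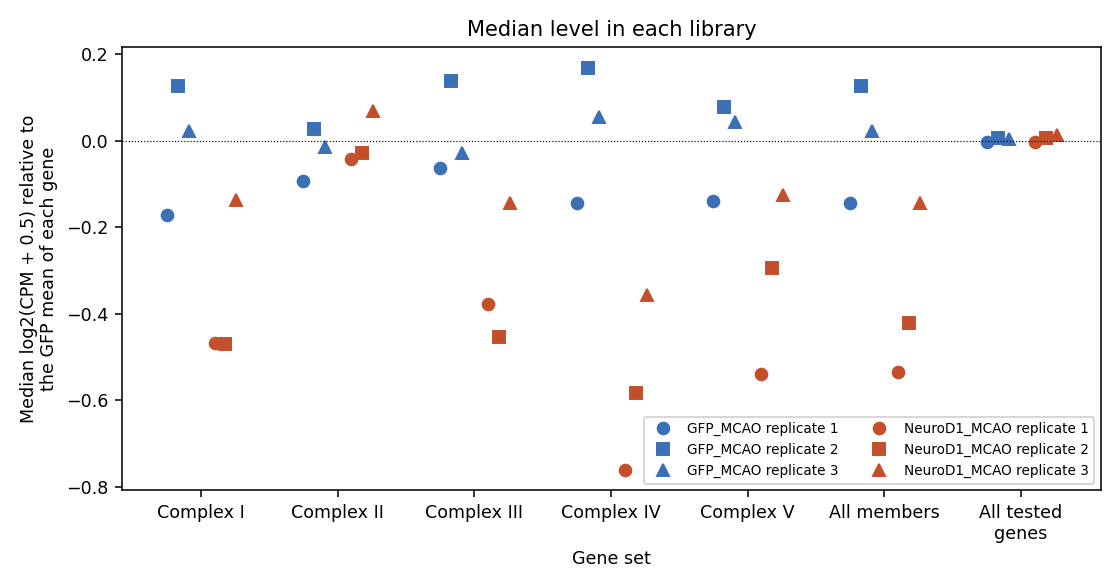
Median level of the tested members of each complex in each library (y axis, log2 of CPM plus 0.5, each gene set against its own GFP mean), beside all members and all tested genes (x axis). Points are libraries, and the groups separate for complex III and for complex IV (-0.76, -0.58 and -0.36 with NeuroD1) but overlap for complexes I, II and V and for all members.

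Complex I, NADH dehydrogenase, is the largest complex of the chain. Of its 36 tested members 29 had a log2 fold change below 0, with a median of -0.36. At an unadjusted edgeR p under 0.05, 10 were lower (11.5% of all genes) and 0 higher (12.5% of all genes). Summed over its members, complex I stood at 2661, 3088 and 2902 CPM with GFP and at 2195, 2177 and 2665 with NeuroD1, so NeuroD1 replicate 3 reached GFP replicate 1. Ndufa5, an accessory subunit of the matrix arm (chromosome 6, 24518666 to 24528013, GRCm38), stood at 65.6, 90.0 and 70.6 CPM with GFP and at 39.0, 45.2 and 51.3 with NeuroD1. Its groups did not overlap, and it was 1.67-fold lower (log2 fold change -0.74, SE 0.21, edgeR adjusted p = 0.14). Ndufs7, which carries the last iron-sulphur cluster before ubiquinone, stood at 59.5, 78.9 and 66.9 CPM with GFP and at 41.0, 45.8 and 52.2 with NeuroD1, again without overlap (-0.56, SE 0.20). Ndufa3, a small subunit of the membrane arm, was at 62.4, 85.1 and 77.4 CPM against 49.3, 41.0 and 57.9 (-0.60, SE 0.21), also without overlap. The other 7 lower ones, named after their values were seen, were Ndufa2, Ndufa6, Ndufa7, Ndufa13, Ndufb2, Ndufb9 and Ndufs6, all accessory subunits, with log2 fold changes from -0.68 for Ndufb9 to -0.49 for Ndufs6. Of these, Ndufb2 alone had overlapping groups. The remaining 26 tested members of the complex ranged from -0.69 to 0.30.

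The 8 members of the NADH-binding module had a median of -0.23, the 8 of the quinone-binding module -0.44 and the 18 tested subunits of the membrane arm -0.40. The core subunits described here ranged from -0.56 for Ndufs7 to 0.30 for Ndufs1. Ndufs1, the largest iron-sulphur subunit (chromosome 1, 63143596 to 63176833), stood at 79.4, 63.2 and 65.9 CPM with GFP and at 97.8, 78.1 and 81.4 with NeuroD1. Its groups overlapped, and its log2 fold change of 0.30 (SE 0.20) was the highest of the complex. Ndufv1, which holds the flavin that accepts electrons from NADH, had a log2 fold change of -0.19 (SE 0.24), Ndufs8 -0.17 (SE 0.18) and Ndufs3 -0.32 (SE 0.19).

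Complex II, succinate dehydrogenase, also works in the citric acid cycle and is encoded wholly in the nucleus. None of its 4 genes had an unadjusted edgeR p under 0.05, and their median was -0.012. Sdha, the flavoprotein that oxidises succinate, stood at 301.7, 196.6 and 196.0 CPM with GFP and at 320.6, 251.6 and 281.9 with NeuroD1, so the groups overlapped through GFP replicate 1 (log2 fold change 0.30, SE 0.25). The iron-sulphur subunit Sdhb was at -0.025 on that scale (SE 0.18). The membrane anchors Sdhc and Sdhd had -0.25 (SE 0.22) and 0.0015 (SE 0.17). Summed levels were 500.2 to 579 CPM with GFP and 545.4 to 579.8 with NeuroD1. The 4 transcripts had a median length of 2065.5 bases, against 659 for complex IV. Singly they were 2900 bases for Sdha, 1142 for Sdhb, 3171 for Sdhc and 1231 for Sdhd. The part of length in these values was not tested.

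Complex III, the cytochrome bc1 complex, had 7 of 9 members below 0 and a median of -0.31. At an unadjusted edgeR p under 0.05, 2 members were lower (11.5% of all genes). Uqcr10, a small membrane subunit, stood at 87.3, 133.7 and 107.8 CPM with GFP and at 63.6, 57.7 and 86.8 with NeuroD1. The groups came within 1 CPM of each other without overlapping (-0.66, SE 0.25, adjusted p = 0.17). Uqcrh, the hinge protein that contacts cytochrome c1, was at 169.9, 195.3 and 168.3 CPM against 111.1, 114.8 and 138.4 (-0.55, SE 0.20), also without overlap. Uqcrq, another small subunit, had -0.50 (SE 0.22) and no overlap. The large core proteins lay on the other side of 0. Uqcrc1 had a log2 fold change of 0.14 (SE 0.19), and Uqcrc2 (chromosome 7, 120635176 to 120659524) had 0.22 (SE 0.20). The catalytic subunits Uqcrfs1, the Rieske iron-sulphur protein, and Cyc1, cytochrome c1, had -0.21 (SE 0.19) and -0.13 (SE 0.21), with overlapping groups.

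Cycs, cytochrome c, which carries electrons to complex IV and triggers apoptosis when released from mitochondria, stood at 50.03, 54.5 and 89.6 CPM with GFP and at 51.7, 49.4 and 69.7 with NeuroD1. The groups overlapped, and the log2 fold change was -0.19 (SE 0.27, edgeR adjusted p = 0.69).

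Complex IV, cytochrome c oxidase, had the lowest median of the 5 complexes, -0.56, with 14 of 15 tested members below 0. At an unadjusted edgeR p under 0.05, 7 were lower (11.5% of all genes). Its summed level was 2229, 2634 and 2328 CPM with GFP and 1421, 1518 and 2016 with NeuroD1, and these sums did not overlap. Cox8a, the broadly expressed form of the smallest subunit (chromosome 19, 7215153 to 7217616), stood at 361, 450.3 and 368 CPM with GFP and at 175, 164 and 272 with NeuroD1. It was 1.93-fold lower without overlap (-0.95, SE 0.27, edgeR adjusted p = 0.14), and DESeq2 called it (adjusted p = 0.0188). Cox6c, a small subunit, stood at 172, 227 and 192 CPM against 102, 93.2 and 147, 1.73-fold lower (-0.79, SE 0.25, DESeq2 adjusted p = 0.0465). Cox7c, another small subunit, was at 36.2, 42.6 and 41.6 CPM against 23.1, 18.3 and 30.7 (-0.74, SE 0.24), without overlap. All 3 have transcripts of 540 to 738 bases. Under the length and GC offsets their log2 fold changes were -0.31, -0.52 and -0.38.

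Not every subunit of cytochrome c oxidase was lower. Cox5a, which contacts the catalytic core from the matrix side, had a log2 fold change of 0.09 (SE 0.19) at a transcript length of 645 bases, and it was the one tested member of complex IV above 0. With length and GC offsets Cox4i1 (0.11), Cox6b1 (0.088) and Cox7a2 (0.042) were above 0 as well. Cox5b had -0.41 (SE 0.23). Cox4i1, the broadly expressed isoform of subunit 4, stood at 478, 475 and 432 CPM with GFP and at 315, 308 and 433 with NeuroD1, so NeuroD1 replicate 3 overlapped the GFP group (-0.39, SE 0.24). Cox6a1, the partner of a muscle isoform, stood at 361.5, 441 and 367 CPM with GFP and at 191, 220 and 303 with NeuroD1, without overlap (-0.71, SE 0.25). Also lower at an unadjusted edgeR p under 0.05, and named after their values were seen, were Cox6b2 (-0.92, SE 0.33), known from testis, and Cox7a2l (-0.56, SE 0.23), which takes part in joining complexes III and IV.

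**Figure D4:**
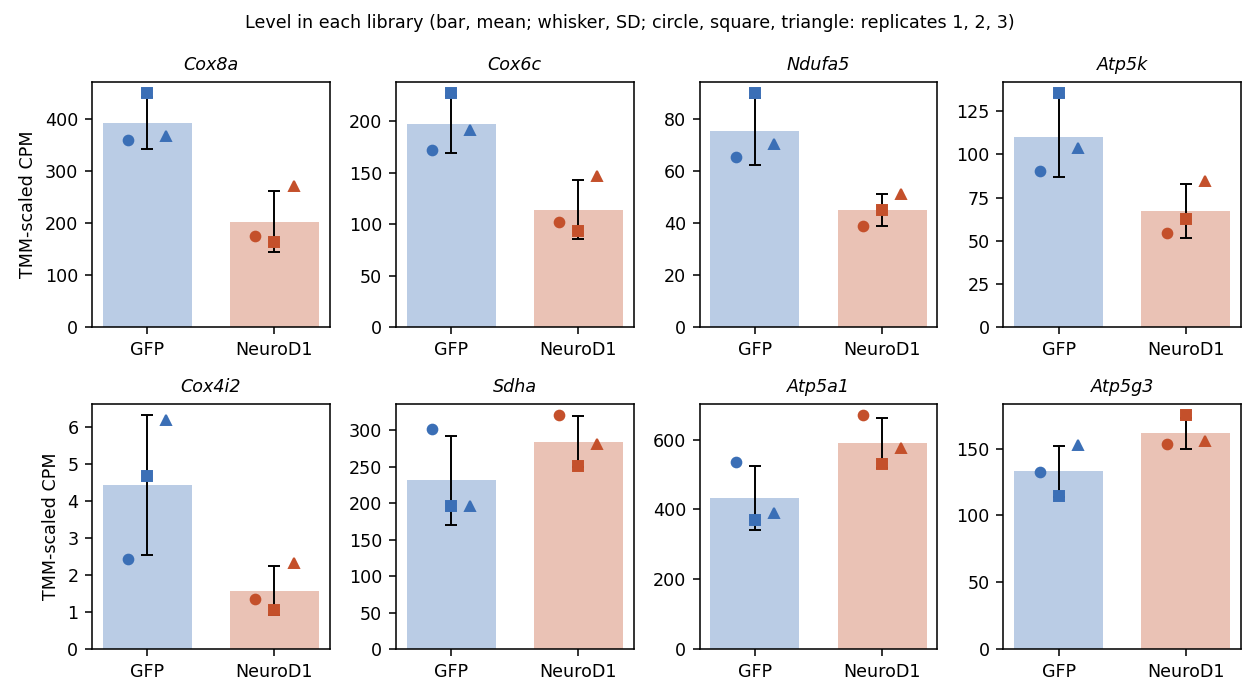
TMM-scaled CPM (y axis) of 8 members in each library by group (x axis), with bars for means and whiskers for SD (n = 3). In Cox8a, Cox6c, Ndufa5, Atp5k and Cox4i2 the NeuroD1 points lie below all GFP points, Sdha and Atp5a1 overlap, and Atp5g3 lies above.

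Complex V, the ATP synthase, held members on both sides of 0, and differences between its modules were not tested. Of the 17 members 11 were below 0, with a median of -0.34, and 4 were lower at an unadjusted edgeR p under 0.05 (11.5% of all genes). Its summed level was 2716, 2680 and 2596 CPM with GFP and 2686, 2503 and 2839 with NeuroD1, so the sums overlapped. Atp5a1 and Atp5b, the alpha and beta subunits of the catalytic head (whose genes have long mRNAs for the family), lay above 0. Atp5a1 stood at 537, 369.9 and 391 CPM with GFP and at 669, 529 and 576 with NeuroD1, with NeuroD1 replicate 2 just below GFP replicate 1 (0.45, SE 0.26, edgeR adjusted p = 0.31). Atp5b (chromosome 10, 128083273 to 128090391) stood at 752, 581 and 577 CPM against 807, 659.5 and 803, with overlap (0.25, SE 0.25). The central stalk gene Atp5c1 had 0.028 (SE 0.18). The 5 genes of head and central stalk had a median of 0.028, with 2 below 0, and the 7 of peripheral stalk and membrane part -0.41, with 6 below 0. Among the latter, Atp5k, subunit e of the synthase dimer, stood at 90.1, 135 and 104 CPM against 54.7, 62.4 and 84.5, without overlap (-0.71, SE 0.25). Atp5j, coupling factor 6 of the stalk, was at 113, 157 and 145 CPM against 82.4, 84.3 and 107, without overlap (-0.60, SE 0.22). It overlaps Gabpa on the opposite strand, and the strand setting of the counting is not given. Atp5sl, an old name for a complex I assembly protein and not a synthase subunit, was at 40.3, 53.8 and 51.3 CPM against 25.1, 28.1 and 38.1 (-0.67, SE 0.23), without overlap. Atp5e, the epsilon subunit of the central stalk and the other one at an unadjusted edgeR p under 0.05, had -0.66 (SE 0.27) with overlapping groups, and is named after its values were seen.

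Atp5g1, Atp5g2 and Atp5g3 encode the same mature c subunit behind different import sequences. Atp5g3 stood at 132, 115 and 152 CPM with GFP and at 154, 175 and 155 with NeuroD1, the one tested member whose NeuroD1 libraries all lay above GFP (0.28, SE 0.20, edgeR adjusted p = 0.41). Atp5g1 and Atp5g2 had log2 fold changes of 0.09 (SE 0.22) and -0.35 (SE 0.29). The 3 genes summed to 254.3, 254.0 and 298.0 CPM with GFP and to 240.6, 306.2 and 289.0 with NeuroD1, so c-ring mRNA as a whole overlapped between the groups.

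Tissue-restricted isoforms replace broadly expressed partners in some cells. Cox4i2, the oxygen-sensitive isoform of subunit 4 that brain pericytes also express (chromosome 2, 152754173 to 152765037), stood at 2.43, 4.68 and 6.19 CPM with GFP and at 1.36, 1.06 and 2.33 with NeuroD1. These were 24, 35 and 57 counts against 18, 11 and 26. The groups did not overlap, and it was 2.78-fold lower (-1.47, SE 0.48, edgeR adjusted p = 0.15), the lowest log2 fold change among the 82. As a log2 ratio to Cox4i1, with 1 CPM added to both, it averaged -6.48 ± 0.61 with GFP and -7.11 ± 0.10 with NeuroD1 (SD, n = 3; two-sided exact permutation p = 0.3, adjusted p = 0.75 over 5 ratios). Ndufa4l2, a hypoxia-induced relative of Ndufa4 that pericytes also express, stood at 5.57, 14.7 and 9.35 CPM against 3.92, 7.16 and 7.27, with overlap (-0.69, SE 0.41). Ndufa4 itself, named for complex I but now assigned to complex IV, had -0.32 (SE 0.24), and their ratio had an exact permutation p of 0.7. Beside these values, 4 of 9 pericyte markers were lower (11.5% of all genes) and 2 higher (12.5%) at an unadjusted edgeR p under 0.05. Their summed level was 490.8 to 545.6 CPM with GFP and 420.6 to 788.7 with NeuroD1. None of the 9 was at 0. The 4 lower ones were Higd1b (-2.08), Vtn (-0.73), Kcnj8 (-0.66) and Notch3 (-0.65), and the 2 higher ones Anpep (1.87) and Cspg4 (0.71). The part of pericytes in the Cox4i2 value was not tested.

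The muscle-type isoforms stood far below their broadly expressed partners. Cox6a2, also found in fast-spiking interneurons, stood at 4.25, 12.4 and 8.26 CPM with GFP and 3.84, 8.71 and 4.67 with NeuroD1 (-0.53, SE 0.46). Its ratio to Cox6a1 had an exact permutation p of 0.5. Cox7a1 had -0.80 (SE 0.47) and Cox7a2 -0.38 (SE 0.22), with an exact permutation p of 0.8 for the ratio. Cox8b was too low to test, at 2 counts in GFP replicate 2, 10 in NeuroD1 replicate 2 and 0 in the other libraries. In most libraries its ratio to Cox8a thus rests on the CPM added and on Cox8a. The ratio was higher by 1.19 on the log2 scale with NeuroD1, at an exact permutation p of 0.1, the smallest that 3 against 3 can give, and by 1.49 at an exact permutation p of 0.5 when 0.1 CPM was added in place of 1. NeuroD1 replicate 2 also stood apart in the 10 skeletal muscle markers, which summed to 312.2 CPM there and to 9.49 to 21.5 CPM in the other 5 libraries. None of the 10 markers was at 0 in all libraries, and the part of muscle tissue in the Cox8b counts was not tested. With the 5 ratios as a family, no adjusted p was below 0.5.

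Lists of genes that build, regulate or feed the chain had medians between -0.23 and 0.09. Over all tested genes, 11.5% were lower and 12.5% higher at an unadjusted edgeR p under 0.05, and the counts of these lists were not tested against those shares. Of 16 tested genes listed for complex I assembly 3 were lower and 1 higher at an unadjusted edgeR p under 0.05 (median -0.23). The lower ones included Ecsit (-0.53, SE 0.22) and Foxred1 (-0.49, SE 0.20). This list also holds Ndufab1 (-0.30, SE 0.27), which encodes a complex I subunit. Of 33 assembly factors for complexes II to V, 5 were lower and 1 higher (median -0.16). The lowest p-values belonged to the cytochrome oxidase assembly factors Cox20, at 26.1, 30.6 and 34.9 CPM with GFP against 10.8, 20.3 and 17.1 (-0.93, SE 0.27), and Surf1, at 58.9, 60.0 and 64.0 against 32.8, 38.5 and 46.5 (-0.64, SE 0.20). Both had groups that did not overlap. Of 19 regulators of mitochondrial biogenesis 1 was lower and 2 higher, with a median of 0.01. Esrra, an orphan nuclear receptor that drives respiratory genes, was at 45.5, 55.3 and 51.7 CPM against 32.7, 35.7 and 35.5 (-0.55, SE 0.18), and Gabpa, the DNA-binding subunit of GABP, was at 34.4, 23.9 and 26.2 against 42.0, 53.0 and 36.5 (0.64, SE 0.23). Their groups did not overlap, in opposite directions. Nrf1 had -0.27 (SE 0.27) and the coactivator Ppargc1a -0.01 (SE 0.40).

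The 19 genes of pyruvate oxidation and the citric acid cycle had a median of 0.02. At an unadjusted edgeR p under 0.05, 0 were lower (11.5% of all genes) and 0 higher (12.5% of all genes). Fh1 (fumarase) and Pdha1 (pyruvate dehydrogenase) had log2 fold changes of 0.33 (SE 0.19) and 0.41 (SE 0.25). The 10 carriers and channels for nucleotides and metabolites had a median of 0.09 and 0 in either direction, with the ADP/ATP carrier Slc25a5 at 0.38 (SE 0.20) and the channel Vdac2 at 0.28 (SE 0.21). Import and cristae genes (18) had 1 lower, Apoo (-1.03, SE 0.32), 1 higher, Tomm70a (0.83, SE 0.33), and a median of -0.13. Glycolysis genes (22) had 2 lower and 5 higher, with a median of 0.06. The lowest p-values there belonged to the monocarboxylate transporter gene Slc16a7 (1.32, SE 0.32) and to Aldoc, the astrocytic aldolase (-1.21, SE 0.31). Hypoxia response genes (16) had 3 lower and 2 higher (median -0.07), among them Vegfa, at 49.7, 58.1 and 62.6 CPM with GFP against 25.2, 32.2 and 27.8 with NeuroD1, and the hexokinase Hk2 (0.76, SE 0.25). Ribosomal genes are given by their counts alone. The 77 mitochondrial ribosome genes had a median of -0.21, with 63 below 0, 3 lower and 0 higher. The 91 tested rows named Rpl or Rps and a number, which include Rps6k kinases, had a median of -0.53 with 34 lower and 2 higher.

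**Figure D5:**
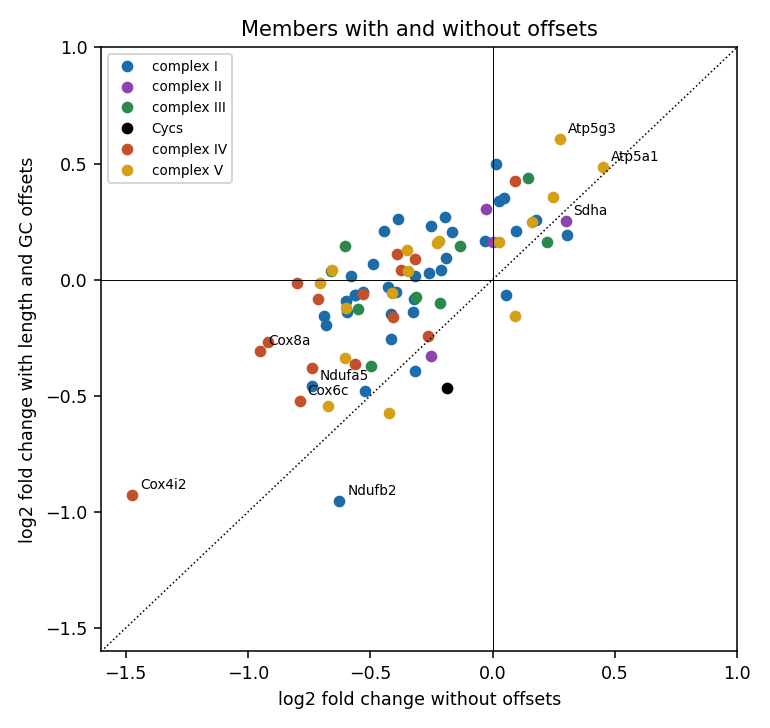
Log2 fold change of each tested member without (x axis) and with (y axis) offsets for transcript length and GC, coloured by complex, with the dotted line marking equal values. Most points lie above the line around 0 on the y axis. With offsets 42 of 82 lie below 0, among them Cox4i2, Cox6c, Ndufa5, Ndufb2 and Cox8a, which are below 0 on both axes.

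Markers of several cell types differed between the same libraries. Over all tested genes, 11.5% were lower and 12.5% higher at an unadjusted edgeR p under 0.05. Summed microglia and macrophage markers (6 of 12 higher and 0 lower at an unadjusted edgeR p under 0.05) were 3290 to 4657 CPM with GFP and 5054 to 12660 with NeuroD1. Fibroblast markers (8 of 8 higher) were 1080 to 1883 against 1847 to 7035, and cell cycle genes (7 of 10 higher) were 138.7 to 191.5 against 237.8 to 841.9. Endothelial markers (8 of 11 lower) were 603 to 907.7 against 233.2 to 470.1, and smooth muscle markers (3 of 6 lower) 104.3 to 245.6 against 55.2 to 116.6. Oligodendrocyte markers (5 of 10 lower) were 11350 to 21540 against 7391 to 9868, and astrocyte markers (2 of 10 lower) 8620 to 14560 against 5308 to 9726. Neuron markers had 0 of 15 lower and 1 higher, and fast-spiking interneuron markers 1 of 8 lower, Pvalb, and 0 higher, with sums of 201.4 to 408.1 against 166.2 to 403.1. Choroid plexus markers (3 of 5 tested lower) were 35.2 to 812.1 against 7.83 to 78.96. None of these markers was at 0 in all libraries. Their part in the levels of the respiratory chain genes was not tested.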

How the data were processed

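Bulk RNA sequencing of 6 cortex samples was used as deposited, in the form of raw read counts per gene symbol. Per the file headers, the authors counted with featureCounts against mm10 genes. The submitters' processing notes also name HISAT2 2.0.1, DESeq2 1.16.1 and GRCm38. How strand and multiply mapping reads were handled is not given in the sources used here. Of the members, 20 overlap another gene of the table on the opposite strand and 5 have pseudogenes named after them, so their counts are uncertain. Columns were matched to samples by the sample description, and no pair of libraries was a duplicate.

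All genes were tested with edgeR 4.0.16 (R 4.3.3), quasi-likelihood F-test, TMM scaling and treatment as the only term, after filterByExpr (minimum count 10, minimum total 15), with Benjamini-Hochberg adjustment over 14852 genes at 0.05. Standard errors come from the F statistic. Alternatives used DESeq2 1.42.0, limma 3.58.1 (voom), other scalings and filters, a replicate block, left-out libraries, and offsets (natural splines, 4 degrees of freedom) of each library on GC and the length of the principal transcript (GENCODE M21, GRCm38), known for 99.4% of tested genes. Offsets for length alone and GC alone were added after seeing the data. The edgeR test was tested on simulated data. Isoform ratios were compared by exact permutation over samples. Positions are GENCODE M21 and promoters RefSeq, both on GRCm38. Depth bounds precision: 1 count equals 0.0753 to 0.134 TMM-scaled CPM.

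Members, gene lists and modules were chosen with earlier results of these data known. Named members are, in each complex, the 3 with the smallest p and the highest and lowest fold change, then core subunits and isoform pairs, and in the other pathway lists the 2 genes with the smallest p. Nrf1, Ppargc1a and genes said to be so were named outside this rule, and 1 member that it names is not reported here.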

Additional observations from a re-analysis of the deposited data

How the results depend on the processing

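Under the scaling, filter and test alternatives the median of the members stayed between -0.44 and -0.34, and no edgeR setting called a member after adjustment. Offsets for length and GC, which also take out group differences that follow these, changed most. The medians were -0.013 for all members, -0.0074, 0.21, 0.036, -0.16 and 0.041 for complexes I to V, and -0.018 for all members with length alone, with 4 members lower and 2 higher at an unadjusted p under 0.05. With these offsets the sign turned for 26 of 82 members, 24 of them from below to above 0. Among these 24 were Atp5g2 (0.13), Cox4i1 (0.11), Cox7a2 (0.042), Cyc1 (0.14), Ndufs3 (0.015), Ndufs8 (0.21), Ndufv1 (0.092), Sdhb (0.30) and Uqcr10 (0.036). Atp5g1 (-0.16), with its unusually long annotated transcript of 4715 bases, was among the 2 that turned from above to below 0. DESeq2 called 3 members. Upper quartile scaling, which moved the median of all genes to -0.059, gave -0.10 for complex II, -0.055 for Atp5c1 and -0.083 for Sdhd. Sdhd was also below 0 with limma-voom (-0.00087) and without Rn45s (-0.024).

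With 1 library left out, the count of lower members ran from 5 (without GFP replicate 2) to 32 (without NeuroD1 replicate 3) and the median from -0.46 to -0.28. Medians ran from -0.079 to 0.023 for complex II and from -0.79 to -0.37 for complex IV. Signs turned within the ranges of Sdhd (-0.048 to 0.055), Sdhb (-0.11 to 0.028), Atp5g1 (-0.059 to 0.28), Cycs (-0.36 to 0.12), Cyc1 (-0.28 to 0.011), Ndufv1 (-0.36 to 0.019), and the ratios Cox6a2/Cox6a1 (-0.039 to 0.58), Cox7a1/Cox7a2 (-0.42 to 0.12) and Ndufa4l2/Ndufa4 (-0.55 to 0.12). The cause was not tested.

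The replicate numbers were not treated as pairs, since the labels do not say that they pair samples. Deviations of same-numbered libraries correlated at 0.52, 0.36 and 0.043 across genes. Those of GFP replicate 2 correlated with NeuroD1 replicate 1 at -0.45, and those of GFP replicate 1 with NeuroD1 replicate 2 at -0.38. Whether same-numbered libraries belong together is thus not settled here. With the replicate block, 0 members passed after adjustment (smallest adjusted p = 0.059), 33 were lower (15.9% of all genes) and 0 higher (17.8%) at an unadjusted p under 0.05, and 479 of all genes passed against 0 without it. GFP replicate 3 correlated best with NeuroD1 replicate 2 (0.12).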

Other observations

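Per kilobase of transcript, Cox8a had the highest level of the family with GFP, 714.5 CPM per kilobase, and the fourth highest with NeuroD1, 370.2. Cox4i1 went from the third place (603.5 CPM per kilobase) to the first (460.1), Cox6a1 held the second (683.2 and 416.6), and Atp5b went from the fifth (332.3) to the third (394.8). These are group means per annotated length, and neighbouring places were not tested.

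The 4 members with too few counts to test were Cox7b2, Cox8b and Cox8c, which are isoforms of other tissues, and Ndufs5, an accessory subunit of complex I. Ndufs5 had 1 count in GFP replicate 2, 1 in NeuroD1 replicate 2 and 0 elsewhere, while the other 36 members of complex I had enough counts to be tested. How the counting treated its reads was not tested. Cox8c had 0 counts in all libraries. They are named after their values were seen.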
